A study of Bos taurus and Bubalus bubalis with 9 samples.

Results

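CLCN1 is the gene of ClC-1, the voltage-gated chloride channel of the skeletal muscle membrane. This report follows its messenger RNA and its circular RNAs, named by gene symbol in the deposited tables, which is 1 gene of the 5014 host genes with a circRNA read in the 9 libraries analysed here. It has 1 transcript (ENSBTAT00000012099, gene ENSBTAG00000009182) of the 19917 in the buffalo mRNA table, and 5 of the 20659 circRNA junctions read in these libraries.

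The study set Xinyang buffalo, labelled low in intramuscular fat, beside Nanyang cattle, labelled high. By the labels, the 3 buffalo and 3 cattle behind these libraries were weaned at 3 months, castrated at 6 months, fattened from 18 months and slaughtered at 30 months, and no agent or transgene is named for them. The longissimus dorsi muscle of both species and the back subcutaneous fat of the cattle were used here, with 3 libraries in each of these groups. By the design both cattle tissues come from the same 3 animals, and the labels do not say whether a library number names an animal. Values for buffalo adipose tissue and for cattle mRNAs were not used here, so linear RNA is described in buffalo muscle only and circular RNA in all of these groups. These are bulk tissues, in which fewer muscle fibres and less RNA per fibre cannot be told apart.

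ClC-1 carries the large resting chloride conductance of muscle fibres, which steadies the membrane between action potentials, and its loss causes the stiffness of myotonia congenita. The channel belongs to the CLC family, which holds both chloride channels of the plasma membrane and chloride-proton exchangers of endosomes and lysosomes. Splicing of the CLCN1 transcript is controlled by MBNL and CELF proteins and is disturbed in myotonic dystrophy. A circRNA arises when a splice donor is joined back to an acceptor upstream of it, and only reads across that back-splice junction count towards it.

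By the size of 1 read in its values, a library held between 35712276 and 65777231 reads, of which 4472 to 27141 were junction reads. Buffalo muscle had 4472 to 6122 junction reads, cattle muscle 15440 to 27141 and cattle adipose tissue 12042 to 21053. The tissue labels were checked on circRNA hosts. Of 15 skeletal muscle markers, 9 had a read in cattle muscle and 2 (NEB and LMO7) in cattle adipose tissue, with 1190 to 1792 summed reads per muscle library against 2 to 8 per adipose library. NEB (2266), MYBPC1 (1094) and LMO7 (940) held most of these reads in cattle muscle, and no other marker had more than 11. ACTA1, TTN, MYH2, MYLPF, TNNI2 and DES gave no junction read there. Of 14 adipocyte markers, 8 had a read in cattle adipose tissue and 6 in cattle muscle, with 147 to 453 summed reads against 119 to 156, and buffalo muscle had 29 to 86. BNC2 held most of these reads in every group, and the other 13 markers summed to 48 to 70 reads per library in cattle adipose tissue, 3 to 11 in cattle muscle and 1 to 5 in buffalo muscle. PPARG, the master regulator of fat cell formation, had 62 reads in cattle adipose tissue and 3 in cattle muscle, and ACACA, an enzyme of fatty acid synthesis, 67 and 2. LPL went the other way, with 2 reads in cattle adipose tissue and 4 in cattle muscle, and CIDEC had 1 read, in buffalo muscle. Among the 14 ADIPOQ, LEP, LIPE, PNPLA2 and EBF2 gave no junction read in any of the 9 libraries.

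The level of CLCN1 mRNA was 64.1, 50.4 and 58.5 FPKM in buffalo muscle 1 to 3 (a level scaled to transcript length and library size, as deposited by the authors), a mean of 57.6 ± 6.87 (SD, n = 3). The libraries lay close together, with buffalo muscle 2 the lowest. In log2(FPKM + 1) this is a mean of 5.87 ± 0.17. By mean FPKM the transcript ranked 1376 of 19917, within the upper 6.91% of all transcripts listed and the upper 10.9% of the 12618 with a mean FPKM of at least 1, and its rank in single libraries lay between 1262 and 1508. The depth behind an FPKM value is unknown, since the table gives no counts. The table lists 1041 transcripts at 0 in all 3 libraries, and these include NEB, with 2074 junction reads in buffalo muscle, and MYH1, so an FPKM of 0 may be a failed estimate and ranks hold only for the values as listed.

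All 5 CLCN1 junctions lie on the plus strand of chromosome 4 (UMD3.1, coordinates as in the deposited tables), and the authors class all 5 as exonic. The first spans chr4:107543781-107544376, which is 596 bp. The second spans chr4:107533216-107535013 (1798 bp). Junction 3 spans chr4:107541371-107544376 (3006 bp), junction 4 chr4:107533216-107534586 (1371 bp) and junction 5 chr4:107533778-107544376 (10599 bp). The junctions reuse a few splice sites. The end of the first is shared by 3 of the 5, and the start of the second by 2. From the first start to the last end they cover 11161 bp. The first junction is short among exonic circRNAs: 3.37% of the 10471 in cattle muscle and 3.97% of the 4208 in buffalo muscle spanned at most as much, where the medians were 9513 bp and 9124.5 bp.

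**Figure D1:**
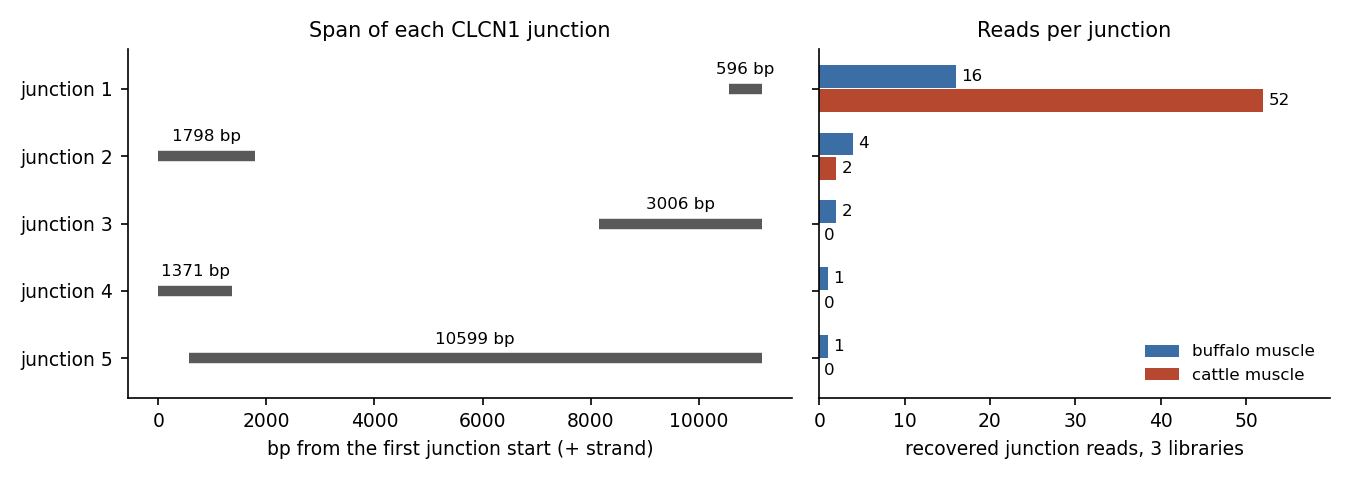
Spans of the 5 CLCN1 junctions in bp from the first junction start (left) and their recovered reads summed over the 3 libraries of buffalo muscle and of cattle muscle (right). Junction 1, the shortest, holds 16 of 24 reads in buffalo and 52 of 54 in cattle.

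The first junction was the only one read in every muscle library of both species. It had 5, 8 and 3 reads in buffalo muscle 1 to 3, and 16, 21 and 15 in cattle muscle 1 to 3. None of the 3 cattle adipose libraries had a read of it. In RPM (junction reads scaled to the reads of the library) these were 0.0760, 0.126 and 0.04999 in buffalo muscle and 0.423, 0.497 and 0.420 in cattle muscle. Each cattle muscle value lay above each buffalo value, and each muscle value above the adipose ones. By mean RPM this junction ranked 111 of 4737 in buffalo muscle and 120 of 11998 in cattle muscle.

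The other 4 junctions rest on few reads. The second had 1, 3 and 0 reads in buffalo muscle 1 to 3 and 2, 0 and 0 in cattle muscle 1 to 3. Junction 3 had 1 read each in buffalo muscle 1 and 2, junction 4 had 1 read in buffalo muscle 2, and junction 5 had 1 read in buffalo muscle 3. No cattle library had a read of junctions 3 to 5. Both cattle junctions have the same coordinates as buffalo ones, and the 3 others were read in buffalo muscle only, where they took 8.33%, 4.17% and 4.17% of the CLCN1 reads. A count of 0 among the 54 CLCN1 reads of cattle muscle allows a share of up to 5.56% for each. Over all host genes, 47.1% of the junctions read in buffalo muscle were also read in cattle muscle. In the other direction, 18.6% of the junctions read in cattle muscle were also read in buffalo muscle.

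With every read counted, those of CLCN1 were more concentrated on 1 junction in the cattle libraries. The first junction took 71.4%, 61.5% and 75.0% of the CLCN1 reads in buffalo muscle 1 to 3, and 88.9%, 100% and 100% in cattle muscle 1 to 3. The groups did not overlap, but the counting error is wide: the exact (Clopper-Pearson) 95% interval ran from 31.6% to 86.1% in buffalo muscle 2 and from 65.3% to 98.6% in cattle muscle 1. Over the 261 host genes with at least 10 muscle reads in each species, the median share of the leading junction was 60.0% in buffalo and 54.7% in cattle muscle, and the median number of junctions was 4 and 6. Only 28 of the 261 hosts had fewer junctions in cattle than in buffalo muscle, CLCN1 among them. The share of the leading junction was higher in cattle in 103 hosts, and in 19, CLCN1 included, by at least as much as in CLCN1. Counting only junctions with at least 2 reads in a library, CLCN1 had a mean of 1.33 junctions per library in each species, against 3 in buffalo and 1.33 in cattle when 1 read sufficed. Under that minimum the first junction held all CLCN1 reads of buffalo muscle 1 and 3, so the shares of the groups overlapped. No test was made of these differences.

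Summed over its junctions, CLCN1 had 18, 21 and 15 reads in cattle muscle 1 to 3 and 0 in each cattle adipose library. The summed level was 0.476, 0.497 and 0.420 RPM in cattle muscle, a mean of 0.464 ± 0.0398 (SD, n = 3). A count of 0 allows up to 0.0266 RPM over the 3 adipose libraries together (3 reads). The pooled muscle level of 0.466 RPM was 17.5 times this limit, a ratio that leaves out the counting error of the muscle reads. The difference in log2(RPM + 1) was 0.55 ± 0.05 (SE), with an adjusted p of 0.00385 by limma over 1837 host genes, of which 2.94% (54) passed as higher in muscle, and the median difference over all hosts tested was 0.00. CLCN1 met the read minimum through its muscle libraries alone, so the filter set its direction in that fit. Without the filter its limma adjusted p was 0.00117 over 4757 host genes, of which 0.526% (25) passed as higher in muscle. The difference stayed at 0.55 there, while its SE was 0.025, against 0.053 with the filter and 0.093 with at least 5 reads. That SE draws on all hosts fitted, so the lower p is no separate evidence. With the filter, the number of hosts higher in muscle was 31 without cattle muscle 2, 24 without cattle muscle 3, 15 without cattle adipose 1 and 13 without cattle adipose 3. The exact two-sided permutation test on the CLCN1 values alone gave p = 0.1, the smallest possible for 3 against 3. The first junction by itself differed by 0.53 ± 0.05 (limma adjusted p = 0.00140), where 3.08% of 1917 junctions passed as higher in muscle. It too met the minimum through muscle alone, and without the filter its limma adjusted p was 0.00066 over 18535 junctions, of which 0.183% passed as higher. The SE of the first junction was 0.023 there, so the same limit holds. The second was below the read minimum and was not tested. The summed skeletal muscle markers, mostly NEB, MYBPC1 and LMO7, moved with this difference, as given above, and their part in it was not tested.

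**Figure D2:**
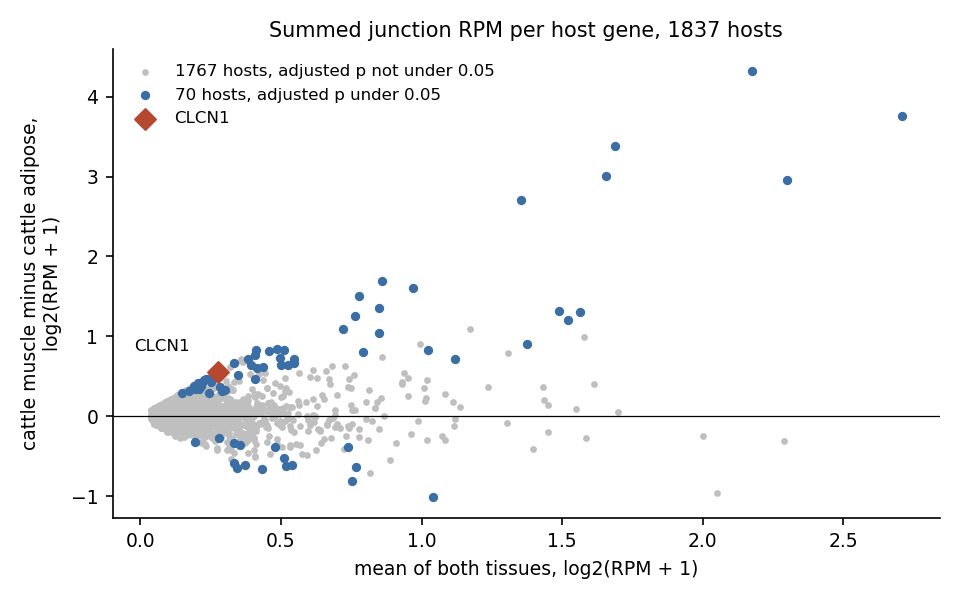
Difference in summed junction RPM between cattle muscle and cattle adipose tissue for 1837 host genes (vertical axis, log2(RPM + 1)) against the mean of both tissues (horizontal axis). Each point is 1 host gene, blue where the limma adjusted p is under 0.05, and CLCN1 sits at 0.55.

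A read in each cattle muscle library was found for 1457 host genes, and 109 of these (7.48%) had no read in any cattle adipose library. CLCN1 had the sixth highest read sum of the 109, with 54 against a median of 10. Above it were MYBPC1 (1094 reads), a myosin-binding protein of the sarcomere, MYL1 (646), a myosin light chain of fast fibres, BOLL (96), MYOZ2 (77), a Z-disc protein of slow fibres, and CECR2 (68). These hosts, and CLCN1's place among them, were looked up after their values were seen.

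The host genes whose levels over the 6 cattle libraries were nearest to CLCN1 were sought among 1886 others with at least 10 reads, by Euclidean distance in log2(RPM + 1). They were PANK1 (distance 0.20), a coenzyme A synthesis kinase, AMOT (0.20), a junction-associated scaffold of the Hippo pathway, MYLK2 (0.26), the myosin light chain kinase of skeletal muscle, ATP2A2 (0.27), the calcium pump of slow fibres, and CECR2 (0.28), a chromatin remodelling factor. MYLK2 had 9, 20 and 16 reads in cattle muscle 1 to 3 and ATP2A2 had 13, 12 and 17, both with 0 in adipose tissue, while PANK1 had 1 adipose read and AMOT 3. Their order changed in buffalo muscle, where CLCN1 had 24 reads, CECR2 28, AMOT 14, ATP2A2 7, PANK1 3 and MYLK2 1.

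Between the species the order of CLCN1 circRNA levels depended on what they were set against. In buffalo muscle 1 to 3 the summed level was 0.106, 0.204 and 0.0667 RPM, from 7, 13 and 4 reads, a mean of 0.126 ± 0.0707 (SD, n = 3). All 3 were below the cattle muscle values, whose mean was 3.69 times as high. As a share of all junction reads of the library, CLCN1 made up 0.132%, 0.212% and 0.0894% in buffalo muscle 1 to 3 and 0.117%, 0.0774% and 0.0685% in cattle muscle 1 to 3. On this scale the groups overlapped, and the buffalo mean of 0.145% ± 0.0624 was 1.65 times the cattle mean of 0.0875% ± 0.0256. In cattle adipose tissue, 0 of 12042, 21053 and 14160 junction reads allow a share of up to 0.0249%, 0.0142% and 0.0212% (3 reads of each total). Both circRNA tables were normalised apart and buffalo reads were aligned to the cattle genome, so no test was made across them.

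**Figure D3:**
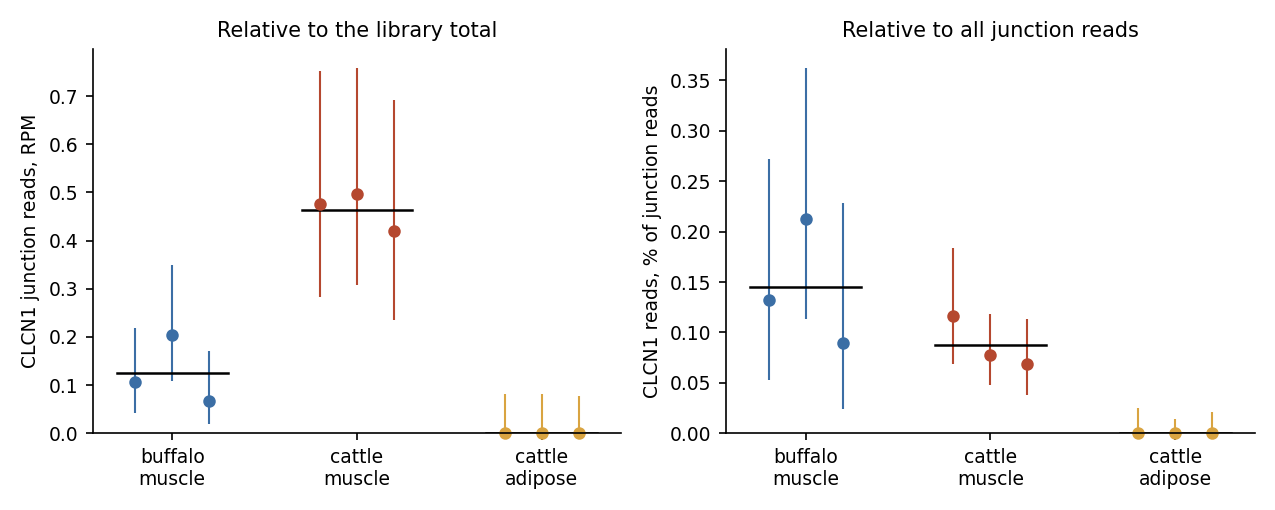
CLCN1 junction reads per library as RPM of the library total (left) and as percent of all junction reads (right), with exact 95% counting intervals (for a count of 0, the limit of 3 reads), and group means as black lines. Cattle muscle is above buffalo muscle on the left, at 0.464 against 0.126 RPM, the groups overlap on the right, and adipose tissue is at 0 on both.

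Total circular output differed between the buffalo and cattle muscle libraries as well. Species, separate normalisation, alignment to the cattle genome and library size cannot be told apart in it. Summed over all circRNAs, junction RPM averaged 83.7 ± 11.2 (SD, n = 3) in buffalo muscle and 554.6 ± 127 in cattle muscle, 6.62 times as high. Across the 1185 host genes with reads in both species and at least 10 in the 6 muscle libraries, cattle over buffalo mean RPM had a median ratio of 7.32, and 26.2% of them had a lower ratio than the 3.69 of CLCN1. Within its species CLCN1 held a like place: it ranked 90 of 2278 host genes by mean RPM in buffalo muscle (3.95%) and 175 of 3882 in cattle muscle (4.51%).

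Circular and linear output could be set side by side in buffalo muscle. The ratio of summed junction RPM to FPKM, expressed per 1000 FPKM, was 1.66, 4.05 and 1.14 in buffalo muscle 1 to 3, a mean of 2.28 ± 1.55 (SD, n = 3). Buffalo muscle 2 had the highest circular and the lowest linear value, and without it the mean was 1.40. A host can have several junctions and FPKM is per length, so the ratio serves only to compare host genes. Among the 4444 hosts with a paired transcript at a mean FPKM of at least 1, chosen for a circRNA in any of the 9 libraries, CLCN1 ranked 745 by the ratio of the means (2.18). Of these hosts, 2174 had a junction read in buffalo muscle, with a median ratio of 1.13. Paired hosts listed at 0 FPKM, 12 in number with NEB among them, have no ratio.

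**Figure D4:**
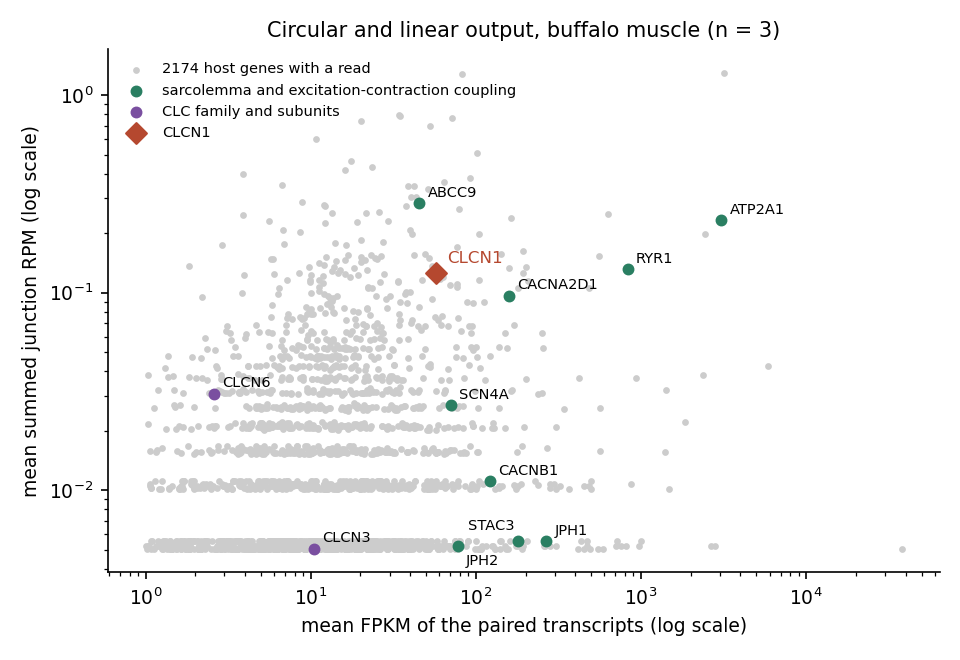
Mean summed junction RPM against mean FPKM of the paired transcripts in buffalo muscle, both on log axes, for the 2174 host genes with a junction read. CLCN1 lies at 57.6 FPKM and 0.126 RPM, at a circular level near that of RYR1 (0.131 RPM), whose linear level is 829 FPKM.

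The list of sarcolemma and excitation-contraction coupling genes, which serve the muscle membrane and calcium release, has 22 members. Of these, 14 could be paired with a transcript, which needs a circRNA in the tables, and 11 of the 14 had a higher mean FPKM than CLCN1 in buffalo muscle. Of the 13 with a mean FPKM of at least 1, only ABCC9 had a higher ratio of circular to linear output, 6.27 per 1000 FPKM, and the median of the 13 was 0.0676. Over all 4444 hosts with a mean FPKM of at least 1, CLCN1 ranked 474 by FPKM and 745 (16.8%) by the ratio. SCN4A, the sodium channel that starts the muscle action potential, had a mean of 70.2 ± 10.5 FPKM (SD, n = 3) in buffalo muscle, close to CLCN1, with 5 junction reads there against 24. RYR1, the calcium release channel, had 829 ± 141 FPKM and 25 reads. ATP2A1, the calcium pump of fast fibres, had 3071 ± 320 FPKM and 44 reads. ABCC9, a subunit of ATP-sensitive potassium channels, had 45.4 ± 2.83 FPKM and 54 reads. CASQ1, the calcium store protein, had 2152 ± 246 FPKM and no junction read.

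In cattle, 14 of the 22 had a junction read in muscle and 2 (ABCC9 and CACNA2D1) in adipose tissue. The read minimum was met by 4, RYR1 and ATP2A1 through muscle libraries alone, so the filter set the direction of these and no count or median over the 4 is read. Neither ABCC9 nor CACNA2D1 passed limma, where 3.81% of all hosts tested did in either direction. Both had an unadjusted p under 0.05, as did 288 of the 1837 hosts tested. ABCC9 had 221 reads in cattle muscle and 52 in adipose tissue (limma adjusted p = 0.159), RYR1 30 and 0 (0.0584), ATP2A1 24 and 0 (0.216), and CACNA2D1, a calcium channel subunit, 30 and 7 (0.245). On the recovered reads ABCC9, with reads in every library of both tissues, passed as higher in muscle with edgeR, where 6.7% of all hosts did, and with DESeq2, where 4.84% did. RYR1 and ATP2A1 passed both as well, from which nothing is read.

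The CLC relatives gave few circRNA reads. Of the 10 family members and subunits listed, 2 had a junction read in each of the groups, and 0 met the read minimum, so none was tested. CLCN6, a late endosomal member, had 6 reads in buffalo muscle, 4 in muscle of cattle and 1 in their adipose tissue. CLCN4, an endosomal exchanger, had 4 reads in cattle muscle only, CLCN3 1 in buffalo muscle, and OSTM1, the partner of CLCN7, 2 in cattle adipose tissue. The 4 with a paired transcript had lower mRNA levels than CLCN1, from 2.58 FPKM for CLCN6 and 2.78 for OSTM1 to 10.5 for CLCN3 and 19.1 for CLCN4. So did most of the 4444 hosts with a mean FPKM of at least 1, among which CLCN1 ranked 474.

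Of 9 factors known to act on CLCN1 RNA or on the channel, 8 could be paired with a transcript. The splicing factors were present as mRNA in buffalo muscle, MBNL1 at 250.1 ± 20.9 FPKM (SD, n = 3), MBNL2 at 69.8 ± 10.4 and CELF1 at 23.6 ± 1.32, while MBNL3 was at 0.518 ± 0.285. DMPK, the kinase gene whose repeat expansion causes myotonic dystrophy, had 63.8 ± 18.1 FPKM and PRKCQ, a protein kinase C of muscle, 25.4 ± 7.53. Only MBNL1 and MBNL2 met the read minimum for circRNAs in cattle. MBNL1 had 34 reads in muscle and 34 in adipose tissue, a difference of 0.00 in log2(RPM + 1). MBNL2 had 13 and 39, a difference of -0.26 (limma adjusted p = 0.278). Of these 2, 0 passed limma, edgeR or DESeq2, where 3.81%, 8.82% and 6.37% of all hosts passed in either direction. MBNL2 alone of the 2 had an unadjusted limma p under 0.05 (0.0360), as did 288 of the 1837 hosts tested.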

How the data were processed

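Per the submitters' notes and the study's methods, Trim Galore, STAR (cattle genome UMD3.1 for either species), Cufflinks 2.2.1 and Cuffdiff were used. Buffalo mRNA levels were deposited as FPKM of each transcript. Levels of circRNAs were deposited as RPM of each junction, and the circRNA caller is not given in the sources used here. The smallest value in a circRNA column was taken as 1 read, and 100% of values were whole reads on that scale (within 0.01 reads). Intervals and limits cover counting error only. 9 columns without a sample in the labels, of buffalo adipose tissue, were not used. No genome of this build was at hand, so no sequence is shown.

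Junction RPM was summed per gene symbol. Hosts or junctions with at least 2 reads in at least 3 of the 6 cattle libraries were tested with limma 3.58.1 on log2(RPM + 1), with Benjamini-Hochberg adjustment over all features tested and a threshold of 0.05. edgeR 4.0.16 and DESeq2 1.42.0 served as alternatives on the recovered reads, beside a pseudocount of 0.1, other read minimums, a replicate block, and leaving out 1 library at a time. The procedure was tested on simulated data. Levels of CLCN1 mRNA, shares of reads, and values between species were described without a test. Hosts were paired with transcripts through the circRNA tables, which gave 5515 transcripts of 4950 hosts. Samples of a group are separate animals by the design, 3 per species, and the fit without a block treats the cattle tissues as independent.

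CLCN1 and all gene lists were chosen with earlier results of these data known. Named genes are CLCN1, its junctions, the 5 nearest hosts, and genes of the lists of CLC relatives, membrane and excitation-contraction coupling genes, and factors acting on CLCN1, beside marker lists for muscle and adipocytes.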

Additional observations from a re-analysis of the deposited data

How the results depend on the processing

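CLCN1 was past the threshold in all 13 alternative fits, summed over junctions (adjusted p from 3.35e-07 to 0.0275) and for its first junction (2.18e-06 to 0.0157). All of these but the fit without a filter keep a read minimum that CLCN1 met through muscle libraries alone, so their shared direction is no sign of stability. The fit without a filter gave the same differences with a smaller SE, which depends on the other hosts or junctions fitted. With each library left out, keeping the same hosts, the summed difference ran from 0.53 to 0.57 and that of the first junction from 0.51 to 0.55. The size of both depended on the pseudocount and the model. They were 2.49 and 2.45 with a pseudocount of 0.1, 7.20 and 7.11 with edgeR and TMM, and 6.59 and 6.53 with DESeq2. The number of features passing moved as well. Hosts higher in muscle numbered 54, and 96 with a pseudocount of 0.1, 25 without a filter, 123 with edgeR and TMM, 91 with edgeR without TMM (chosen after seeing the data), 89 with DESeq2 and 13 to 57 with a library left out. Junctions higher in muscle numbered 59, and 106, 34, 137, 102, 101 and 21 to 68 in the same order. The cause was not tested.

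Both cattle tissues come from the same 3 animals, but whether equal numbers mark 1 animal is not given. Deviations of same-numbered samples correlated at 0.214, 0.177 and -0.0219 for numbers 1 to 3, muscle 1 and 2 each correlated best with their own number, and muscle 3 with adipose 2. With the replicate block, CLCN1 had an adjusted p of 0.0119 and 53 hosts were higher in muscle.

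Cattle over buffalo muscle had a log2 ratio of 1.88 in RPM (1.58 to 2.42 with a library left out). Relative to all junction reads the log2 ratio was -0.73, the reverse order, with total junction RPM 6.62 times as high in cattle muscle. Counting only transcripts with a mean FPKM of at least 1 put the mRNA within the upper 10.9%, and requiring 2 reads left 1.33 junctions per buffalo library in place of 3, the same as in cattle muscle, where the mean was 1.33 under either minimum. Each of the 4 minor junctions rests on 1 to 4 reads in a species where it was read, so its share is imprecise by counting error alone.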
